A study of Mus musculus with 20 samples.

Results

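The effect of 24 hours of I-BET on unstimulated RAW264.7 cells was taken from 4 of the 20 RNA sequencing libraries of the series: 2 of untreated cells at hour 0 and 2 of cells kept for 24 hours with I-BET at 500 nM and no RANKL. They were chosen by their labels alone, and every gene of the table was carried, 50686 in all, of which 16042 had enough reads to be tested. RAW264.7 is an established mouse line of monocyte and macrophage character that turns into osteoclasts, the cells that resorb bone, when given the cytokine RANKL. The series as a whole asked how a BET inhibitor acts on that conversion, with RANKL (50 ng per ml), I-BET or both for 4, 14 or 24 hours. The labels do not say which I-BET compound was used, and all libraries come from this single line. The untreated cells are given as hour 0 in title and time point, but their library names begin with the 4 that elsewhere marks 4-hour libraries, so their hour is not certain. No untreated cells of 24 hours were analysed here, so treatment and 24 hours in culture cannot be told apart in the comparison with them. RANKL plus I-BET against RANKL alone, both at 24 hours, is matched in time and shares no library with it, and its values are set beside those of I-BET alone.

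I-BET compounds occupy the bromodomains of BET proteins, with which these proteins bind acetylated histones. BET proteins help to recruit P-TEFb, the kinase that releases paused RNA polymerase II, and genes driven by strong enhancers, with Myc as the best known, depend on them. In macrophages these include genes of inflammation and of the interferon response, and 7SK-bound HEXIM1 holds P-TEFb in an inactive store.

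The 4 libraries held 19051780 and 40202063 counts (untreated 1 and 2) and 62313792 and 48030425 counts (I-BET 1 and 2). Untreated library 2 stood apart: 7 genes related to ribosomal RNA took 10.7% of its counts, against 0.395% to 1.26% in the other 19 libraries, and 48 tested genes were over 10 times higher in it than in untreated library 1, with 0 the other way. Of the macrophage markers 10 were measured, and their summed level was 8960 and 10200 CPM in untreated cells and 7280 and 7190 CPM with I-BET. Lyz2 alone held 4931 and 5842 CPM of the untreated sums, so the sums say little of the single markers. All markers of T cells, B cells, erythroid, epithelial and endothelial cells were below 1 CPM in these libraries, and so were 8 of 9 markers of fibroblasts and bone-forming cells. Levels are given as CPM, that is counts scaled to an adjusted library size, one value per library. A change is a log2 fold change, printed with its standard error (SE), n = 2 libraries a group. A gene is called higher or lower, and said to have risen or fallen, where the adjusted p of edgeR's quasi-likelihood test is under 0.05. Whether the libraries of a group stem from different cultures is not stated, and the p-values then reflect only the spread between these libraries. Members of a list introduced as further called members lie outside the rule for named genes and were picked after their values were seen. In bulk RNA, fewer cells of a kind and less RNA per cell cannot be told apart.

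After 24 hours of I-BET 1203 genes were higher (7.5% of those tested) and 1636 were lower (10.2%). The falls were the larger: 933 genes fell by 2-fold or more, and 246 rose by as much. Of the calls 42.4% were higher. With limma on log2 RPKM plus 1 or plus 0.1 the share was 62.2% and 62.3%, and the median of all genes lay at 0.0999 and 0.117 on the log2 scale there, against 0.018 in the edgeR fit. Counts moved with every library. The higher and lower calls numbered 630 and 1157 without untreated library 1, 558 and 1084 without untreated library 2, 771 and 1126 without I-BET library 1, and 688 and 1043 without I-BET library 2. Calls that held in all 4 of these fits numbered 405 of the higher (33.7%) and 815 of the lower (49.8%). With the library number as a block 2908 genes were higher and 2897 lower, so that 50.1% of those calls were higher.

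**Figure D1:**
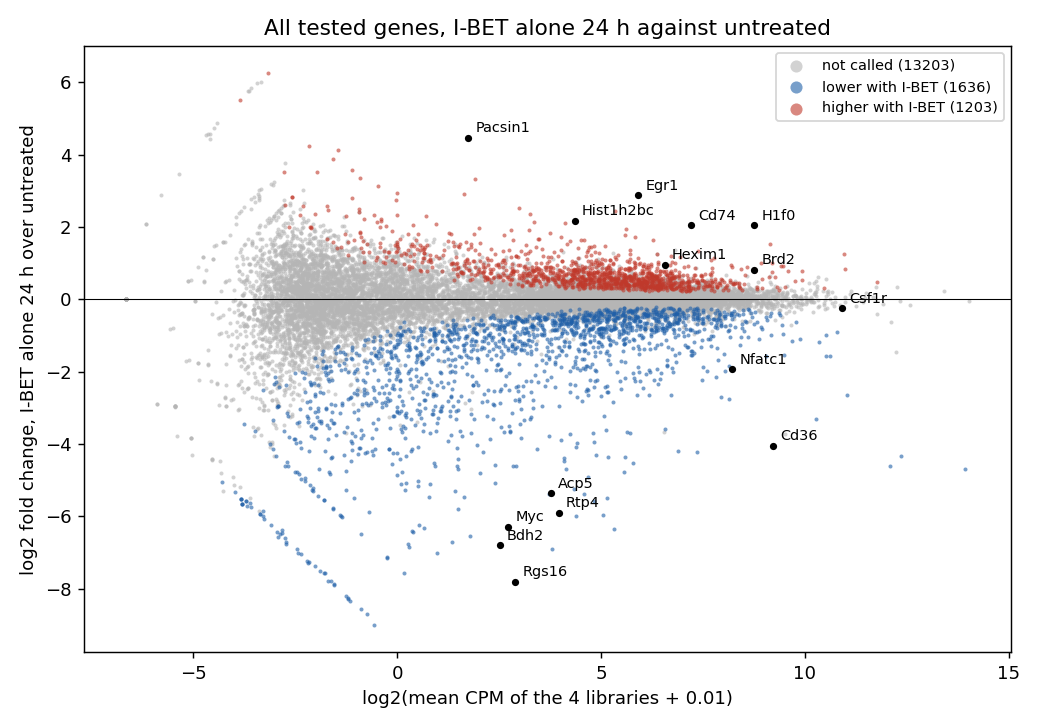
Each point is 1 of the 16042 tested genes. The horizontal axis is the log2 of the mean CPM of the 4 libraries plus 0.01, the vertical axis the log2 fold change of I-BET alone at 24 hours over untreated cells; red points were called higher (1203), blue points lower (1636) and grey points were not called. Falls reach further from 0 than rises, with Rgs16 and Myc below and Pacsin1 and Egr1 above.

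The deepest falls among genes with a mean of at least 5 CPM took transcripts close to the detection limit. Rgs16, which ends G-protein signals, was at 19.9 and 9.64 CPM in untreated cells and at 0.0947 and 0.0208 CPM with I-BET, a change of -7.81 (SE 0.77, adjusted p = 1.1e-05). Its I-BET libraries held 6 and 1 reads, so the depth of the fall is loosely measured. Tmem26, a membrane protein, went from 92.4 and 65.2 CPM to 1.14 and 0.748 CPM, a change of -6.36 (SE 0.46, adjusted p = 9.6e-07). The secreted olfactomedin-like protein Olfml3 changed by -5.98 (SE 0.28) and Angptl2, a secreted angiopoietin-like protein, by -5.48 (SE 0.46). The C-type lectin Clec4a2 changed by -5.40 (SE 0.34) and Olr1, a receptor of oxidised lipoprotein, by -5.39 (SE 1.03), the latter with unlike libraries in both groups (37.8 and 14.0 against 0.932 and 0.229 CPM). Bdh2, a cytosolic dehydrogenase, and Odf3l1 changed by -6.80 and -6.71. Rpph1, the RNA of ribonuclease P, was also among the 12 deepest falls (-5.96, SE 1.37), but its untreated libraries read 3.0 and 126 CPM, and without untreated library 2 the change was -1.54 (adjusted p = 0.45).

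The largest rises were smaller in size than the deepest falls and began from levels between 0.259 and 168 CPM. Pacsin1, a membrane-bending protein, went from 0.259 and 0.304 CPM to 7.47 and 5.26 CPM, a change of 4.46 (SE 0.42, adjusted p = 6.8e-06). The serine protease Prss16 rose by 3.32 (SE 0.28), the motor protein Myo6 by 2.91 (SE 0.21) and the early-response transcription factor Egr1 by 2.88 (SE 0.35). Egr1 stood at 18 and 11.2 CPM in untreated cells and at 142 and 70.5 CPM with I-BET, so both I-BET libraries lay above both untreated ones. Arid5a, an RNA-binding protein, rose by 2.52 (SE 0.17), Frmd6 by 2.35 (SE 0.18) and Dact3 by 1.97 (SE 0.37). H1f0, the replacement linker histone, was the most abundant of the 12 and went from 168 CPM in both untreated libraries to 614 and 776 CPM, a change of 2.05 (SE 0.17, adjusted p = 2.4e-06).

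Among the targets of the drug and the kinase they recruit, 4 of 16 measured genes of BET proteins and P-TEFb rose and 2 fell. Over all tested genes 7.5% rose and 10.2% fell. The list median was 0.284 against 0.018 over all genes. Brd2, a BET protein (chromosome 17, 34112023 to 34122634, mm10), was at 315 and 312 CPM in untreated cells and at 549 and 554 CPM with I-BET. The groups were far apart relative to their spread, with a change of 0.82 (SE 0.08, adjusted p = 1.0e-05). Brd3, a further BET protein, was at 108 and 92.8 CPM against 102 and 89.9 CPM and did not pass (-0.06, SE 0.15, adjusted p = 0.84). Hexim1, the P-TEFb inhibitor, rose by 0.96 (SE 0.20, adjusted p = 0.0043), from 57.9 and 70.3 CPM to 112 and 138 CPM. The call of Hexim1 ended without untreated library 1 (adjusted p = 0.060) and without I-BET library 2 (adjusted p = 0.051). The elongation factor gene Ell2 fell by 1.04 (SE 0.26, adjusted p = 0.012), a call that ended without untreated library 1 and without I-BET library 2. Mllt3, which reads acylated histones within the elongation complex, rose by 0.71 (SE 0.15, adjusted p = 0.0049) and was lost without untreated library 2 and without I-BET library 1. Further called members were the elongation factor Ell (0.63, SE 0.11) and Hexim2, another inhibitor of P-TEFb (-1.0, SE 0.31), the latter lost with any of the 4 libraries left out. With the block 10 of the 16 genes were higher and 2 lower.

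Myc was nearly absent after 24 hours, and 4 other genes of its dimerisation network were higher. Myc (chromosome 15, 61985341 to 61990374, mm10) was at 17.7 and 8.32 CPM in untreated cells and at 0.174 and 0.145 CPM with I-BET, or 11 and 7 reads. Every I-BET library lay below every untreated one, and the change was -6.28 (SE 0.49, adjusted p = 1.8e-06). Of the 12 measured network members 4 were higher and 1, Myc itself, lower, with a median of 0.417. Over all tested genes 7.5% were higher and 10.2% lower. Mxd1 and Mxd4, which compete with MYC for its partner MAX, rose by 1.45 (SE 0.17, adjusted p = 5.0e-05) and 1.08 (SE 0.20, adjusted p = 0.0015). Mycn, a paralog of Myc, was at 432 and 512 CPM in untreated cells and at 762 and 1011 CPM with I-BET (0.91, SE 0.26, adjusted p = 0.026), and its call ended without untreated library 1, without untreated library 2 or without I-BET library 2. Per gene length the untreated level of Mycn was a mean of 136 RPKM against 4.67 RPKM for Myc, and with I-BET 271 against 0.0593 RPKM. A further called member was Mlxip (0.51, SE 0.11), lost in 1 of the 4 fits that left out a library.

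**Figure D2:**
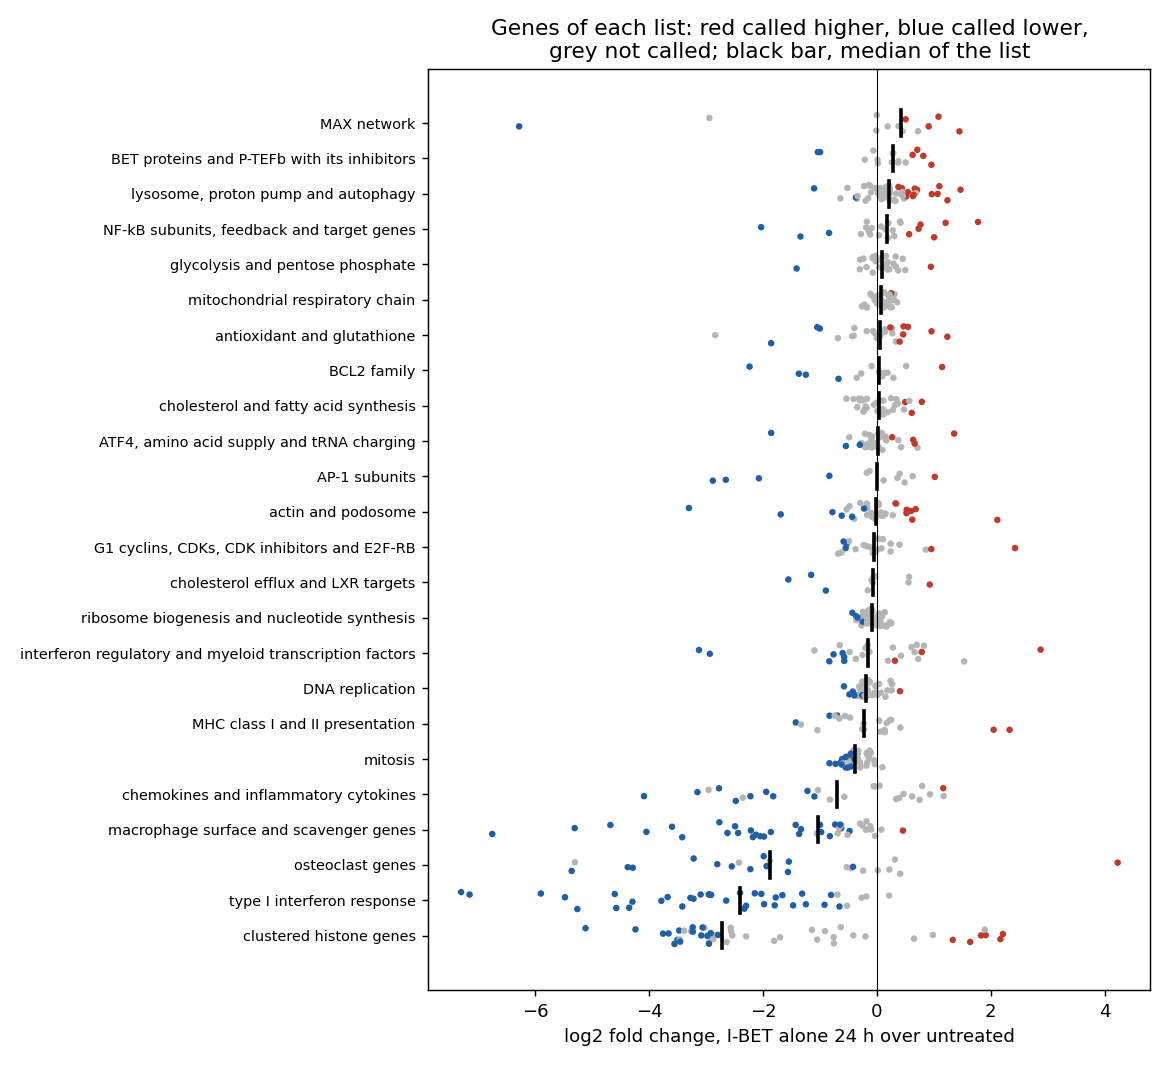
Each row is one gene list and each point one tested member, placed by its log2 fold change of I-BET alone at 24 hours over untreated cells; red points were called higher, blue lower and grey not, and the black bar is the list median. Interferon-response genes (median -2.4), osteoclast genes (-1.88) and macrophage surface genes (-1.03) lie to the left, while the histone row is split between far left and right.

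Interferon-response genes fell nearly throughout, while 10.2% of all tested genes were lower and 7.5% higher. Of 39 measured members of the type I interferon list 34 were lower and 0 higher, with a median of -2.4 against 0.018 over all genes, and 33 to 35 were lower whichever library was left out. With limma on log2 RPKM plus 1, which shrinks the changes of rare genes, the median was -1.35. Rtp4, an interferon-induced chaperone, went from 28.0 and 33.2 CPM to 0.379 and 0.665 CPM, a change of -5.90 (SE 0.50, adjusted p = 2.8e-06). Ifi44 went from 87.9 and 96.0 CPM to 4.96 and 4.03 CPM (-4.35, SE 0.29, adjusted p = 6.2e-07), and its neighbour in sequence Ifi44l by -4.60 (SE 0.63). Xaf1, an interferon-induced antagonist of inhibitors of apoptosis, fell by 4.58 (SE 0.29). In each of these genes both I-BET libraries were far below both untreated ones. Further called members show the range: the antiviral synthetases Oas2 and Oas3 were at 55.8 and 55.2 and at 61.2 and 61.2 CPM in untreated cells and changed by -4.29 (SE 0.20) and -3.22 (SE 0.27), and Irf7, a transcription factor of the pathway, changed by -2.95 (SE 0.46). The 5 members not called were Bst2, Ifi35, the receptor chains Ifnar1 and Ifnar2 and Stat2, which was at 29.6 and 28.9 CPM against 32.3 and 35.6 CPM (0.22, SE 0.15, adjusted p = 0.38). Ifit and Oas genes have close copies, and reads may be split between them.

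Promoters of 5 of these genes are shown because they hold an element named for the interferon response. Most promoters of the list had no match to it. The list holds interferon-response genes, so its share of matches is not independent of how it was chosen. The interferon-stimulated response element, searched as GAAA, any 2 bases and GAAA on either strand from 250 bases before to 50 bases after the start, was found in 15 of 38 RefSeq promoters of the list (39.5%; 14 of 30 genes with a promoter entry). Among members called lower the count was 13 of 33 promoters (39.4%). The share was 3.44% of all 32851 promoters and 3.13% of the promoters of tested genes. A match is a description of letters, not of a bound site. The 140 bases before the start are given 5′ to 3′ on the gene's strand for the 5 called genes with a match there that fell furthest (RefSeq, GRCm38.p6), with the matches in capitals. They are chr19:34583389-34583528 on the plus strand for Ifit3, chr19:34640749-34640888 on the plus strand for Ifit1, chr4:156200819-156200958 on the minus strand for Isg15, chr5:120777660-120777799 on the minus strand for Oas3 and chr12:26456453-26456592 on the minus strand for Rsad2.
Ifit3: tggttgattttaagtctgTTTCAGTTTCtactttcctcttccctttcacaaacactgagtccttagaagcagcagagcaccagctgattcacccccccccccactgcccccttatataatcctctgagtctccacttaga
Ifit1: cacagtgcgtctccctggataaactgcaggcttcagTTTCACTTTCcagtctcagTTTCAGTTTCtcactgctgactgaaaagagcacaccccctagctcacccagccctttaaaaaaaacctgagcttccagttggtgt
Isg15: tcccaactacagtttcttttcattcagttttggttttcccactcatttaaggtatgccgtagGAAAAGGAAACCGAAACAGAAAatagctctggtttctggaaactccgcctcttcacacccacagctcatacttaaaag
Oas3: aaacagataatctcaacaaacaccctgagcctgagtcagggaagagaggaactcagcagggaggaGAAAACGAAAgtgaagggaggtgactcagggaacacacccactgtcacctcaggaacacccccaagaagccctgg
Rsad2: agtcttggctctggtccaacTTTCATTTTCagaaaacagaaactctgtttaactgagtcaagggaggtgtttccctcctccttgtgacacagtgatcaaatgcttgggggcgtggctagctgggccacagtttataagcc
In Isg15 3 overlapping matches run together, and in Ifit1 a pair stands apart. The changes of these 5 genes were -5.26 (SE 0.66) for Ifit3, -3.79 (SE 0.33) for Ifit1, -3.27 (SE 0.47) for Isg15, -3.22 (SE 0.27) for Oas3 and -3.09 (SE 0.32) for Rsad2. Ifit3 was the rarest of them with I-BET, at 0.0316 and 0.0831 CPM.

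Most measured surface receptors of macrophages fell, while 10.2% of all tested genes were lower and 7.5% higher. Of 40 measured genes of macrophage surface and scavenger receptors 26 were lower and 1 higher, with a median of -1.03 (-0.566 on log2 RPKM plus 1), and 17 were lower without untreated library 2 or without I-BET library 2. Cd36, the scavenger receptor and fatty acid carrier, went from 1149 and 1110 CPM to 93.5 and 43.0 CPM, a change of -4.05 (SE 0.38, adjusted p = 6.5e-06). Msr1, the class A scavenger receptor, went from 504 and 485 CPM to 86.5 and 58.9 CPM (-2.77, SE 0.17, adjusted p = 3.8e-07). The C-type lectins Clec4d and Clec4n, which recognise fungal and mycobacterial glycans, changed by -3.60 (SE 0.16) and -5.31 (SE 0.58). Each of these 4 genes held its call whichever library was left out. Csf1r, the receptor for M-CSF, was not among the calls: at 2028 and 2189 CPM against 1827 and 1718 CPM it did not pass (-0.25, SE 0.15, adjusted p = 0.29), although the block called it (adjusted p = 0.033). The 1 higher was a further called member, Fcer1g, the Fc receptor signalling chain (0.46, SE 0.11), lost in 2 of the 4 fits that left out a library. Among defining macrophage markers, chosen after their values were seen, Itgam fell by 2.44 (SE 0.19). The adaptor Tyrobp was at 276 and 294 against 276 and 282 CPM (-0.03, adjusted p = 0.94). Of the other measured markers Fcgr1 and Cd68 were called lower (-1.86 and -0.48) and Fcer1g higher. Csf1r, Spi1, Ptprc, Cd14 and Lyz2 were not called.

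Of 23 measured osteoclast genes 12 were lower and 1 higher, beside 10.2% and 7.5% of all tested genes. The list median was -1.88 (-0.744 on log2 RPKM plus 1). Tnfrsf11a, the receptor RANK itself, went from 383 and 232 CPM to 101 and 54.1 CPM, a change of -1.99 (SE 0.40, adjusted p = 0.0032). Nfatc1, the master transcription factor of osteoclasts, went from 600 and 342 CPM to 137 and 109 CPM (-1.94, SE 0.38, adjusted p = 0.0028). For both genes untreated library 1 was well above library 2, and both I-BET libraries lay below either. Acp5, the tartrate-resistant acid phosphatase that marks osteoclasts, went from 36 and 17.5 CPM to 0.837 and 0.416 CPM (-5.36, SE 0.54, adjusted p = 1.2e-05). Atp6v0d2, a proton pump subunit, changed by -4.38 (SE 0.71), the fusion proteins Ocstamp and Dcstamp by -3.22 (SE 0.32) and -2.55 (SE 0.32), and the collagen-cleaving cathepsin Ctsk by -2.22 (SE 0.18). Mmp9, a gelatinase, was at 0 and 0.166 CPM in untreated cells and at 0 in both I-BET libraries; it was not called (adjusted p = 0.093), and 0 counts in the I-BET libraries together allow up to 0.0272 CPM (counting error only). The 1 member called higher was Itgb3, an integrin chain of osteoclasts, which rests on 1 read in untreated cells against 23 and 21, and its call ended in 2 of the 4 fits that left out a library.

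AP-1 is the partner of NFATC1 on osteoclast genes. Of 12 measured subunits 4 were lower, 3 of them Fos proteins, and 1 was higher, with a median of -0.00433. Over all tested genes 10.2% were lower and 7.5% higher. Fos was at 142 and 106 CPM in untreated cells and at 24.5 and 14.8 CPM with I-BET (-2.65, SE 0.30, adjusted p = 3.0e-05). Fosl1 and Fosl2 fell by 2.88 (SE 0.31) and 2.07 (SE 0.26), and both calls held in every fit that left out a library. Jdp2 fell by 0.83 (SE 0.18, adjusted p = 0.0054), a call that ended without untreated library 1 and without I-BET library 2. The 1 higher was a further called member, Maff (1.02, SE 0.31), lost with any of the 4 libraries left out. Of the Jun proteins, looked up after the calls were known, 0 of 3 were called (Jun 0.49, Junb 0.12 and Jund 0.36).

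Chemokine and cytokine genes moved unevenly, with 9 of 26 lower and 1 higher, beside 10.2% and 7.5% of all tested genes. The list median was -0.698, but -0.278 without untreated library 1, -1.24 without I-BET library 1 and -0.22 on log2 RPKM plus 1. Il1rn, the antagonist of the interleukin 1 receptor, went from 42.0 and 37.3 CPM to 2.5 and 2.14 CPM, a change of -4.09 (SE 0.16, adjusted p = 1.4e-08). Ccl9, a macrophage chemokine, went from 297 and 289 CPM to 70.6 and 54.9 CPM (-2.22, SE 0.21, adjusted p = 9.3e-06). Cxcl10, an interferon-induced chemokine, changed by -2.77 (SE 0.26) and Ptgs2, which makes prostaglandins, by -1.94 (SE 0.29). The 1 higher was a further called member, the chemokine Ccl4 (1.17, SE 0.34), lost in 3 of the 4 fits that left out a library. Of 24 genes of NF-kB and its feedback 6 were higher and 3 lower (7.5% and 10.2% of all tested genes), with a median of 0.172. The counts were 3 and 2 without untreated library 2, 4 and 3 without I-BET library 1, 5 and 1 without untreated library 1 or I-BET library 2, and 3 and 3 with the libraries compared alone, and the median was 0.0841 without I-BET library 2. Cd83, an activation marker of antigen-presenting cells, rose by 1.78 (SE 0.21, adjusted p = 4.0e-05), from 22.3 and 21.1 CPM to 90.9 and 57.5 CPM, and the nuclear IkB protein Nfkbiz rose by 1.21 (SE 0.18, adjusted p = 0.00035). Traf1, which binds TNF receptor complexes, fell by 2.03 (SE 0.34, adjusted p = 0.00079), and Bcl3, an atypical IkB protein, changed by -1.34 (SE 0.32), a call that ended without untreated library 1 and without I-BET library 2. Tnip3 was a further called member among the falls (-0.84, SE 0.25), lost in 3 of the 4 fits that left out a library, and Nfkbia, the inhibitor IkB alpha, one among the rises (1.01, SE 0.16).

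Of 28 interferon regulatory and myeloid transcription factors 3 were higher and 7 lower, with a median of -0.164. Over all tested genes 7.5% were higher and 10.2% lower. Without untreated library 1 or without I-BET library 2 the lower numbered 3 and the median was -0.0353 and -0.0325, and the higher numbered 1 without untreated library 1 and without untreated library 2. Irf8, a macrophage factor that restrains osteoclast formation, was at 51.9 and 74.0 CPM in untreated cells and at 90.9 and 109 CPM with I-BET. The groups did not overlap, but the change of 0.66 (SE 0.31, adjusted p = 0.17) did not pass; the block called it (adjusted p = 5.6e-06). Bcl6, a repressor of osteoclast genes, fell from 56.1 and 44.2 CPM to 29.2 and 26.9 CPM (-0.84, SE 0.17, adjusted p = 0.0034). Egr1, described above, was the largest rise of the list, and a further called member, Etv3, was higher by 0.32 (SE 0.09), lost with any of the 4 libraries left out. Klf6 was lower by 0.76 (SE 0.20) and Klf2 higher by 0.79 (SE 0.25); the first call ended without untreated library 1 and without I-BET library 2, the second also without untreated library 2.

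Many genes of mitosis were lower by small amounts. Of 42 mitosis genes 19 were lower and 0 higher, beside 10.2% and 7.5% of all tested genes, with a list median of -0.384. The lower numbered 9 without I-BET library 1, 11 without untreated library 1, 13 without untreated library 2 and 31 with the block. Kif20a, a kinesin of cytokinesis, went from 176 and 156 CPM to 98.6 and 102 CPM (-0.72, SE 0.09, adjusted p = 5.6e-05). Cdc25b, which activates the mitotic kinase, changed by -0.83 (SE 0.13), Ccnb2, a mitotic cyclin, by -0.64 (SE 0.12) and Ube2c, the ubiquitin carrier of the anaphase complex, by -0.62 (SE 0.12). Among 44 DNA replication genes 6 were lower and 1 higher, with a median of -0.19, beside 10.2% lower and 7.5% higher of all tested genes, and 2 or 3 were lower with a library left out. That count lies near the share of all genes. The helicase subunit Mcm6 went from 393 and 370 CPM to 290 and 280 CPM (-0.42, SE 0.09, adjusted p = 0.0035), and Pole2, a polymerase subunit, was the 1 called higher (0.41, SE 0.08). The block called 4 replication genes higher and 18 lower, limma on log2 RPKM 3 and 3.

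Among regulators of G1 2 of 23 were higher and 3 lower, near the 7.5% and 10.2% of all tested genes, with a median of -0.043 (0.0329 and 0.0336 on log2 RPKM plus 1 and 0.1). Btg2, an antiproliferative protein, went from 9.73 and 15.7 CPM to 59.4 and 78.6 CPM, a change of 2.43 (SE 0.40, adjusted p = 0.00075). Rb1, the retinoblastoma protein, rose by 0.96 (SE 0.23, adjusted p = 0.0099), a call lost without untreated library 2 and without I-BET library 1. Ccnd1, cyclin D1, fell from 372 and 337 CPM to 267 and 218 CPM (-0.55, SE 0.16, adjusted p = 0.025), a call that ended without untreated library 1, without untreated library 2 or without I-BET library 2. The transcription factor E2f2 was lower by 0.58 (SE 0.16), lost without untreated library 2 and without I-BET library 1, and a further called member, the cyclin Ccne2, by 0.53 (SE 0.17), lost with any of the 4 libraries left out. Cdkn1a, the p21 inhibitor of cyclin-dependent kinases, was at 147 and 155 CPM against 146 and 163 CPM (0.04, SE 0.19, adjusted p = 0.93). In the BCL2 family 4 of 15 were lower and 1 higher, beside 10.2% and 7.5% of all tested genes, with a median of 0.0361. The prosurvival genes Bcl2a1b and Bcl2a1d fell by 1.37 (SE 0.19) and 1.25 (SE 0.24), which as near-identical copies may share reads, the pore-forming Bak1 fell by 0.67 (SE 0.10), the further called member Bok by 2.24 (SE 0.37), and Pmaip1, which encodes the proapoptotic NOXA, rose by 1.15 (SE 0.25), a call lost without untreated library 2 and without I-BET library 1.

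Genes of ribosome biogenesis and nucleotide synthesis, a class known as MYC targets, held few calls. Of 43 measured 4 were lower and 0 higher, with a median of -0.0797; 10.2% of all tested genes were lower. In the list 0 or 1 was lower with a library left out. The 4 included the pseudouridine synthase Dkc1 (-0.36, SE 0.09), Wdr12 (-0.34, SE 0.07) and Umps (-0.25, SE 0.07). The remaining one was the transferrin receptor Tfrc (-0.43, SE 0.14), which the list holds although it serves neither process. Dkc1, for one, was at 268 and 266 CPM in untreated cells and at 209 and 206 CPM with I-BET. With the block 13 were lower and 4 higher. On log2 RPKM the median was 0.0163 with 1 added and 0.0165 with 0.1 added, so its sign rests on the scaling. The E-box CACGTG, to which MYC and MAX bind, was found in 11 of 42 promoters of the list (26.2%), against 7.15% of all promoters and 9.84% of those of tested genes, and in 0 of 7 promoters of the 4 genes called lower. The same windows held the interferon element in 0 of 42.

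Lysosome and autophagy genes were more often higher than lower. Of 53 measured 13 were higher and 2 lower, beside 7.5% and 10.2% of all tested genes, with a median of 0.213. Without untreated library 2 or without I-BET library 1 the higher numbered 8, and the block called 26 higher and 6 lower. Map1lc3a, an LC3 protein of the autophagosome, went from 3.37 and 2.90 CPM to 7.47 and 7.25 CPM (1.24, SE 0.16, adjusted p = 8.7e-05). Ulk1, the kinase that starts autophagy, went from 20.1 and 17.6 CPM to 40.9 and 39.6 CPM (1.10, SE 0.09, adjusted p = 3.1e-06). Atp6v0a1, a proton pump subunit, rose by 1.07 (SE 0.14, adjusted p = 0.00013). The lysosomal protease Ctss went the other way (-1.10, SE 0.26, adjusted p = 0.0098), a call lost without untreated library 2 and without either I-BET library, and so did the pump subunit Atp6v1b2, a further called member (-0.37, SE 0.12), lost in 3 of the 4 fits that left out a library.

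Among antioxidant and glutathione genes 7 of 29 were higher and 3 lower, beside 7.5% and 10.2% of all tested genes. The median was 0.0522, and 4 were higher with any library left out. Ftl1, the ferritin light chain, went from 969 and 1402 CPM to 2135 and 3458 CPM (1.24, SE 0.29, adjusted p = 0.0089), a call that ended without untreated library 1 and without I-BET library 2. Slc7a11, the cystine carrier, fell by 1.86 (SE 0.25), Gpx1, a glutathione peroxidase, by 1.0 (SE 0.17) and Osgin1 by 1.05 (SE 0.28), the last lost without untreated library 1 and without I-BET library 2. Slc7a11 also belongs to the list of ATF4 targets, amino acid supply and tRNA charging. There 4 of 33 were higher and 3 lower, near the 7.5% and 10.2% of all tested genes. In it Sesn2, a stress-induced brake on mTORC1, rose by 1.36 (SE 0.22). The median of that list was 0.0272. The stress factor Ddit3 (0.64, SE 0.20) and the proline enzyme Pycr1 (0.66, SE 0.22) were higher and each call was lost in 3 of the 4 fits that left out a library. Further called members were Mthfd1l (-0.54, SE 0.10) and, lost with any of the 4 libraries left out, Slc38a2 (0.27, SE 0.07) and Slc7a1 (-0.30, SE 0.08).

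Of 32 genes of cholesterol and fatty acid synthesis 3 were higher and 0 lower, with a median of 0.0309. Over all tested genes 7.5% were higher and 10.2% lower, with a median of 0.018. The count of higher genes in the list lies near that share. The 3 were Acly, Acaca and Fasn, which serve fatty acid synthesis. Acly went from 312 and 328 CPM to 517 and 590 CPM (0.79, SE 0.11, adjusted p = 0.00026), while Fasn rose by 0.61 (SE 0.12) and Acaca by 0.50 (SE 0.08). The block called 9 of the list higher and 7 lower. Of 11 genes of cholesterol efflux and LXR targets 1 was higher and 3 lower, with a median of -0.0685 (0.0148 and 0.0179 on log2 RPKM plus 1 and 0.1). The phospholipid carrier Pltp fell by 1.55 (SE 0.21), the LXR alpha receptor Nr1h3 by 1.15 (SE 0.22) and Lpl, lipoprotein lipase, from 2518 and 2087 CPM to 1512 and 962 CPM (-0.90, SE 0.23). The calls of Lpl, without untreated library 1 and without I-BET library 2, and of the exporter Abcg1 (0.93, SE 0.28), with any of the 4 libraries left out, were lost.

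Of 22 genes of antigen presentation 2 were higher and 3 lower, near the 7.5% and 10.2% of all tested genes. The median was -0.23, but -0.00527 without untreated library 2 and -0.0841 without I-BET library 1, and the lower numbered 1 without untreated library 1 or I-BET library 2. Cd74, the invariant chain, went from 48.0 and 66.5 CPM to 226 and 249 CPM, a change of 2.05 (SE 0.28, adjusted p = 0.00014). Cd86, a costimulator of T cells and a further called member, rose by 2.33 (SE 0.41) from 0.207 and 0.415 CPM. Nlrc5, the transactivator of class I genes, fell by 0.70 (SE 0.10). The further called members Cd274, the checkpoint ligand PD-L1 (-1.42, SE 0.40), and Cd80, a costimulator (-0.83, SE 0.26), were lost in 2 and in 3 of the 4 fits that left out a library. In the actin and podosome list 7 of 34 were higher and 6 lower (7.5% and 10.2% of all tested genes), 3 were higher without untreated library 2, and the libraries compared alone gave 3 and 4, with a median of -0.0125 (0.0787 and 0.0791 on log2 RPKM plus 1 and 0.1). Rcsd1, which binds actin capping protein, rose by 2.12 (SE 0.38), the myosin Myo1f fell by 1.69 (SE 0.11) and Actg1, the cytoplasmic gamma actin, by 0.78 (SE 0.11), while the call of Ezr (0.68, SE 0.15) ended without untreated library 1. Few genes of energy metabolism were called, beside 7.5% higher and 10.2% lower of all tested genes. Of 27 glycolysis and pentose phosphate genes 1 rose (Aldoc, 0.95, SE 0.16) and 1 fell (the hexokinase Hk3, -1.41, SE 0.21). Of 36 respiratory chain genes 1 was higher, Ndufv2 (0.25, SE 0.08), a call lost with any of the 4 libraries left out. The medians of these lists were 0.0944 and 0.0745.

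Of the clustered histone genes the falls depended on single libraries and the rises did not. Of 48 measured 16 were lower and 6 higher, beside 10.2% and 7.5% of all tested genes, with a list median of -2.72. All 16 lower calls were absent without untreated library 2, where the median was 0.691 and 7 genes were higher; without untreated library 1 the median was -3.52 and 34 were lower. Without I-BET library 1 or 2 the lower numbered 2 and 1, with medians of -2.84 and -2.53. Untreated library 2 read 12.3 times library 1 at the median of the 48 genes, and at least 7.27 times among the 16. The transcripts of most clustered histone genes end without a poly(A) tail, and the libraries were made from poly(A) RNA; the part of this in the difference was not tested. The 6 called higher were also called without untreated library 2. Hist1h2bc went from 6.21 and 8.57 CPM to 35.7 and 31.5 CPM (2.17, SE 0.18, adjusted p = 2.7e-06), Hist1h1c, the linker histone H1.2, from 31.1 and 43.7 CPM to 107 and 127 CPM (1.64, SE 0.21), and Hist2h2be from 5.75 and 5.08 CPM to 13.2 and 14.0 CPM (1.33, SE 0.13). Hist1h4i rose by 1.91 (SE 0.33), and the remaining pair, Hist3h2a and Hist2h2bb, were further called members (1.83, SE 0.25, and 2.21, SE 0.30). Histone genes have close copies, so the split of reads between them is uncertain.

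**Figure D3:**
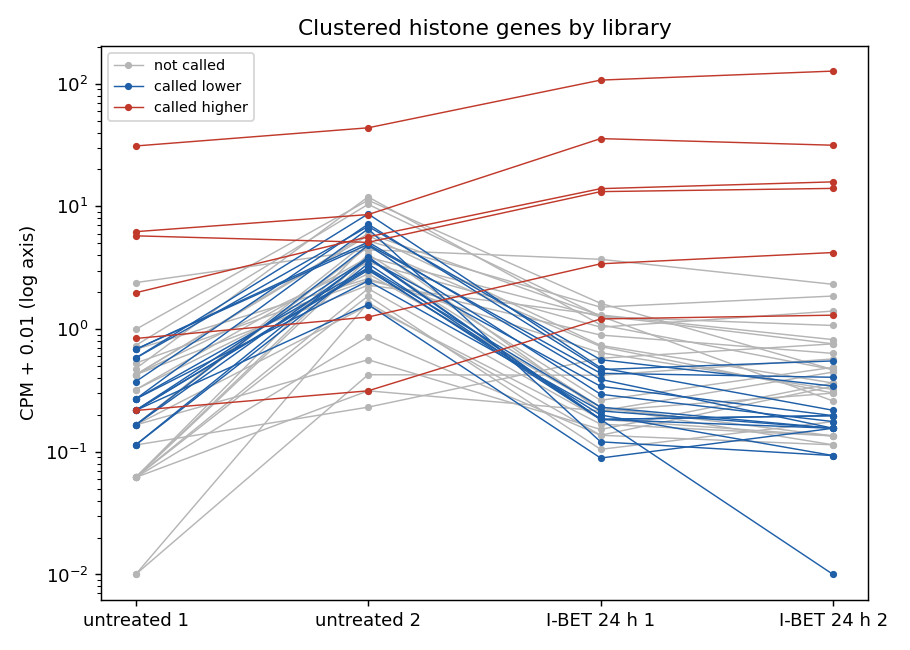
Each line is 1 of the 48 tested clustered histone genes, drawn over the 4 libraries; the vertical log axis is CPM plus 0.01, with red for genes called higher, blue for genes called lower and grey for those not called. Blue and most grey lines peak in untreated library 2 alone, while the 6 red lines are higher in both I-BET libraries.

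The earlier hours of I-BET alone show when these levels were reached. These comparisons use the same 2 libraries of 24 hours, so their values are given side by side. Between 4 and 24 hours 788 genes were higher (4.91%) and 885 lower (5.52%), and with the block 2554 and 2353. The counts fell to 325 and 449 without I-BET 4-hour library 2, to 435 and 532 without its library 1, to 446 and 497 without 24-hour library 1 and to 387 and 358 without 24-hour library 2. Myc had lost most of its reads by 4 hours (0.897 and 0.702 CPM) and was at 0.158 and 0.182 CPM at 14 hours. Brd2 was highest at 4 hours (759 and 739 CPM), then at 512 and 493 CPM at 14 hours, and its fall from 4 to 24 hours was called (-0.44, adjusted p = 0.0029). Hist1h2bc had the same course, with 64.4 and 59.2 CPM at 4 hours (-0.88 to 24 hours, adjusted p = 0.0044). Cd36 went down late: 835 and 607 CPM at 4 hours, 198 and 136 CPM at 14 hours and 93.5 and 43.0 CPM at 24 hours, a change of -3.40 from 4 hours (adjusted p = 7.0e-05). Of the interferon list 23 genes fell further after 4 hours, with Ifi44 at 40.4 and 43.6 CPM at 4 hours and 6.80 and 7.27 CPM at 14 hours. Pacsin1 and Cd74 rose between 4 and 24 hours, by 4.04 (adjusted p = 2.3e-05) and 2.03 (adjusted p = 0.00041), whereas Frmd6 and H1f0 changed by 0.29 and 0.43 from 4 to 24 hours, which did not pass.

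From 14 to 24 hours few further differences passed. With edgeR 1 gene was higher (0.00623%) and 5 were lower (0.0312%), with 1061 genes at an unadjusted p under 0.05. All of them were at an adjusted p of 0.046, and with any of the 4 libraries left out 0 were called in either direction. With the block the counts were 223 and 176, and with DESeq2 70 and 65. Mt1, a metallothionein, went from 69.7 and 74.3 CPM to 102 and 120 CPM (0.63, SE 0.10). Oas2 went from 6.32 and 7.36 CPM to 2.83 CPM in both libraries (-1.27, SE 0.19), and the iron and manganese carrier Slc11a1 from 31.9 and 33.0 CPM to 21.3 and 18.1 CPM (-0.72, SE 0.11). Adcy2, an adenylate cyclase, changed by -0.90 (SE 0.13) and the RNA-binding protein Hnrnpa1 by -0.53 (SE 0.08).

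**Figure D4:**
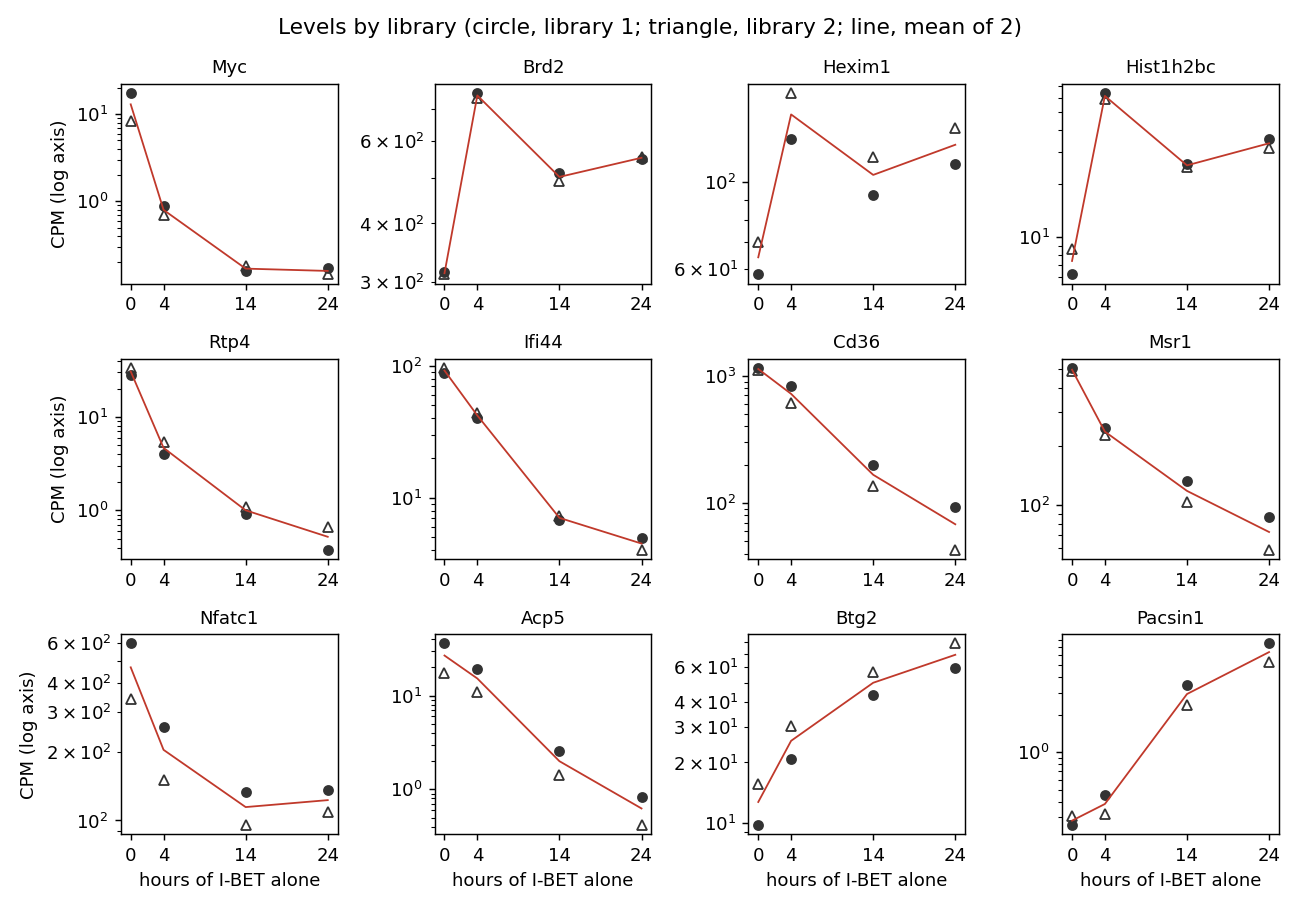
Panels show 12 genes; the horizontal axis is hours of I-BET alone, with untreated cells drawn at the labelled 0, and the vertical log axis is CPM. Circles are library 1, triangles library 2, and lines join the means. Myc is down and Brd2, Hexim1 and Hist1h2bc peak by 4 hours, while Cd36, Acp5 and Pacsin1 move mostly between 4 and 24 hours.

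Set against cells of the same hour, RANKL plus I-BET over RANKL alone gave 2227 genes higher (13.9%) and 2072 lower (12.9%). With the block these were 3707 and 3768. Without RANKL library 1 the count of higher genes was 1434, and without RANKL plus I-BET library 2 that of lower genes was 1339. Of the 1203 genes higher with I-BET alone, 864 (71.8%) were also higher there, which is 38.8% of the genes higher with RANKL, and 15 were lower. Of the 1636 lower with I-BET alone 959 (58.6%) were also lower, or 46.3% of that list, and 94 were higher. Myc was at 145 and 123 CPM with RANKL and at 0.508 and 0.241 CPM with both agents (-8.49, SE 0.46, adjusted p = 5.0e-08). Rgs16 changed by -8.47 (SE 0.70), Acp5 by -7.30 (SE 0.54), Rtp4 by -5.70 (SE 0.49) and Pacsin1 by 5.13 (SE 0.50), each in the direction seen with I-BET alone. Of the interferon list 29 of 39 were lower and 2 higher, of the osteoclast list 15 of 23 were lower, and of the lysosome list 24 of 53 were higher. Macrophage surface genes were lower in 12 and higher in 12 of 40. Ribosome biogenesis genes were lower in 20 of 43, and among clustered histone genes 8 of 48 were higher and 0 lower.

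The difference between both contrasts was tested directly, as the effect with RANKL minus the effect alone; the latter also holds the time in culture since the untreated sample, which cannot be told apart from I-BET in it. The difference was above 0 for 632 genes (3.94%) and below 0 for 211 (1.32%). With the block the counts were 1663 and 1278. The count above 0 fell to 420 without RANKL library 1; that below 0 fell to 135 without untreated library 1, 96 without untreated library 2, 125 without I-BET library 1, 127 without RANKL plus I-BET library 1 and 116 without its library 2. Irf8 differed by 2.89 (SE 0.45, adjusted p = 0.0016): RANKL alone took it to 4.14 and 6.26 CPM, and with both agents it stood at 55.4 and 66.4 CPM, against 90.9 and 109 CPM with I-BET alone. Fosl2 differed by -2.19 (SE 0.36, adjusted p = 0.0023), with 617 and 605 CPM under RANKL and 35.7 and 28.2 CPM with both, against 30.0 and 23.1 CPM with I-BET alone. Cd36 differed by 2.15 (SE 0.48, adjusted p = 0.016); RANKL cells held 254 and 236 CPM, well under untreated cells, and with both agents it was at 86.2 and 45.0 CPM, against 93.5 and 43.0 CPM with I-BET alone. Outside the gene lists Nt5e, an enzyme that makes adenosine, differed by 4.66 (SE 0.52) and the egress receptor S1pr1 by 4.77 (SE 0.58), while Il15 differed by -3.07 (SE 0.33) and the chemokine receptor Ccr1 by -3.76 (SE 0.85). Nt5e fell from 10.3 and 10.1 CPM to 0.395 and 0.187 CPM with I-BET alone, and was at 0.347 and 0.227 CPM with RANKL.

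**Figure D5:**
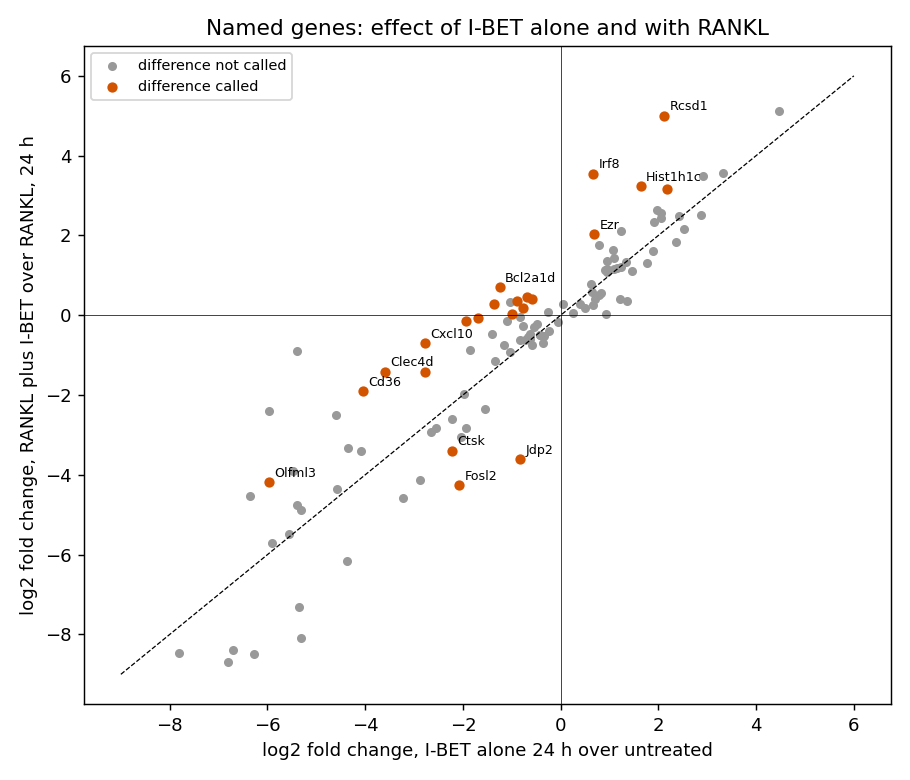
Each point is 1 of the 113 named genes; the horizontal axis is the log2 fold change of I-BET alone over untreated cells and the vertical axis that of RANKL plus I-BET over RANKL, both at 24 hours. The dashed line marks equal effects and orange points are the 22 genes whose difference was called, 19 of them above the line and 3 (Jdp2, Fosl2 and Ctsk) below it.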

How the data were processed

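RNA of 20 libraries of RAW264.7 cells, 10 groups of 2, was sequenced after poly(A) selection with paired-end Illumina reads (per the labels' protocols). Per the submitters' processing notes, the tools were FastQC, STAR 2.5.3a and DESeq2 1.16.1, with the build GRCm38 (mm10). How reads were assigned to genes, and whether by strand, is not stated in the sources used here, so close copies, overlapping genes and antisense genes are uncertain. The authors deposited raw counts. The RPKM that the authors deposited can be recomputed exactly from these counts, gene lengths and library totals, and are no second measurement. Gene symbols were deposited for 42745 of 50686 genes, GENCODE M21 gave 7915, and 26 lacked one. Libraries held between 19051780 and 62313792 counts. Floors (3 counts over a group) cover counting error only.

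The count test was the robust quasi-likelihood F test of edgeR 4.0.16 (R 4.3.3), on TMM-scaled libraries and 16042 genes kept by filterByExpr. One mean per group was fitted to all 20 libraries, which leaves 10 residual degrees of freedom, and p-values were adjusted by Benjamini-Hochberg within each of 5 comparisons. The biological coefficient of variation was 0.162. Other settings were RLE factors, unfiltered genes, genes with 1 CPM or more in 2 or more libraries, a fit that is not robust, DESeq2 1.42.0, a fit to the compared libraries alone, limma 3.58.1 on log2 RPKM plus 1 or 0.1 (1 RPKM or more in 2 or more libraries), each library left out, the replicate block, and removal of Lars2, Rpph1 and Rmrp. Removal of 7 rRNA-related genes, the block with untreated library 2 left out, and list medians per setting were chosen after seeing the data. Where a group kept 1 library, that library is assumed to vary like the other groups. The block fits the library number. Same-numbered libraries deviated together from their group means in all 45 pairs of groups (correlation 0.321 to 0.806, median 0.61, and 0.422 for untreated and I-BET 24 hours). The pairing therefore comes from these data and not from a label, and with it the coefficient of variation was 0.0751. No batch is named in the labels.

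The members and the 25 gene lists, clustered histone genes included, were chosen with earlier results of these data known, and lists are described by counts and medians without a set test. Adgre1, a macrophage marker, was not analysed here. Named are the fixed genes, the 12 called genes that rose most and the 12 that fell most with groups that do not overlap and a mean of 5 CPM or more in the higher group, and up to 4 such members of each list, 113 in all; of the other comparisons a part of the 4 largest changes each way is printed. Items that may not be printed are not reported here. The test was tried on simulated data for I-BET alone against untreated (16042 genes). It found 10 of 67 genes changed 1.5-fold, 32 of 67 changed 2-fold and 51 of 66 changed 4-fold, with 3 false calls. The simulated libraries were drawn independently, without pairing by library number and without an untreated library unlike the other. The 3 false calls therefore do not measure the errors in the real libraries. Promoter windows are those of RefSeq (GRCm38.p6). Figures were drawn with matplotlib 3.10.9.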

Additional observations from a re-analysis of the deposited data

Results flagged for a closer look

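For 22 of the 113 named genes RANKL plus I-BET over RANKL and I-BET alone over untreated cells differed by the test of that difference in edgeR (adjusted p under 0.05, effect with RANKL minus effect alone, log2). The first contrast is matched in time and the second is not, so time in culture is part of the difference and cannot be told apart from it. The difference was above 0 for 19 genes and below 0 for 3. Each figure that follows is this difference, and n = 2 libraries in each of the 4 groups.

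The 3 genes below 0 belong to the AP-1 and osteoclast lists, other named members of which did not pass, such as Fos (-0.27, adjusted p = 0.83) and Nfatc1 (-0.90, adjusted p = 0.43). Jdp2 differed by -2.77, Fosl2 by -2.19 and the cathepsin Ctsk by -1.17. Jdp2 stood at 543 and 490.5 CPM with RANKL and at 49.0 and 35.9 CPM with both agents, and Ctsk at 88.6 and 59.4 against 7.44 and 6.67 CPM.

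Of the surface receptors Clec4d differed by 2.18, Cd36 by 2.15 and Msr1 by 1.35, while Clec4n did not pass (0.42, adjusted p = 0.95). Lpl differed by 1.26, while Pltp (-0.79) and Abcg1 (-0.91) did not pass. Without I-BET, RANKL cells held less of the receptors called than untreated cells, with Msr1 at 157 and 167 against 504 and 485 CPM and Clec4d at 42.5 and 45.8 against 178 and 173 CPM. The same held for the inflammatory genes Cxcl10, which differed by 2.07, and Ptgs2, which differed by 1.80; Ptgs2 was at 5.05 and 9.56 CPM with RANKL and at 51.2 and 39.8 CPM in untreated cells.

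The BCL2 family genes Bcl2a1d and Bcl2a1b differed by 1.95 and 1.65. Myo1f differed by 1.63, Ezr by 1.35, Actg1 by 0.96 and Rcsd1 by 2.88 in the actin list. Hist1h1c differed by 1.59 and Hist1h2bc by 0.993, and Olfml3 by 1.79. Nlrc5 differed by 1.15, Gpx1 by 1.02 and E2f2 by 0.984. Irf8 showed the largest of the 19 called differences above 0, 2.89.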

How the results depend on the processing

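Of the 113 named genes 110 kept the sign of their change in every setting that gave them a value; Brd3, Cdkn1a and Mmp9, which were not called, took the other sign in some. For each count below, the higher genes come first, then the lower, and the cause of a shift was not tested. No label pairs the libraries by number, and the pairing was read from these data. The replicate block, which uses it, gave 2908 and 2897 calls for I-BET at 24 hours against untreated. It gave 2554 and 2353 against 4 hours, 223 and 176 against 14 hours, and 3707 and 3768 for RANKL plus I-BET against RANKL. For the difference of effects the block gave 1663 and 1278. Of the named genes it added Csf1r and Irf8 and ended 0 calls. With untreated library 2 also left out the difference of effects gave 1363 and 607. With fewer libraries, those compared alone, the counts were 604 and 1070 against untreated, 221 and 369 against 4 hours, 0 and 0 against 14 hours, and for the difference 97 below 0, and 17 named genes lost their call. Limma called 1011 genes lower on log2 RPKM plus 1 and 1013 on plus 0.1 against untreated, 515 higher on plus 0.1 against 4 hours, and 0 and 0 on either against 14 hours. DESeq2 called 1188 higher against 4 hours, 70 and 65 against 14 hours and 386 below 0 for the difference. Without the low-count filter 81 and 60 were called against 14 hours and 445 below 0 for the difference; the CPM filter gave 3 higher against 14 hours, and RLE size factors or leaving out the 7 rRNA-related genes 0 and 0. Leaving out 1 library gave 558 to 771 higher and 1043 to 1157 lower against untreated, 325 to 446 and 358 to 532 against 4 hours, 0 and 0 against 14 hours, 1434 to 2073 and 1339 to 1826 for RANKL plus I-BET, and 420 to 677 and 96 to 302 for the difference. It ended the calls of 14 to 22 named genes per library. Medians near 0 took the other sign with some library left out for the AP-1, ATF4, BCL2, actin, fatty acid, glycolysis, respiratory chain and ribosome biogenesis lists. Mmp9 was called with DESeq2 and with no low-count filter. Genes near the floor, such as Rgs16 and Odf3l1 with I-BET, limit how exactly deep falls are measured, and small changes are often missed at this depth and number of libraries.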
